A study of Homo sapiens with 9 samples.

Results

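The cyclin-dependent kinase (CDK) inhibitor genes CDKN1A, CDKN1B, CDKN1C, CDKN2A, CDKN2B, CDKN2C and CDKN2D were followed in RNA recovered with the deadenylase complex CCR4-NOT and in input RNA. They were chosen by symbol, and all 7 were found among the 30956 genes of the deposited table, each as 1 gene. The RNA came from HEK293T, a human embryonic kidney line that carries adenoviral E1A and SV40 large T antigen, viral proteins that bind RB, among others. CCR4-NOT was immunoprecipitated through V5-tagged CNOT7, one of its nuclease subunits, with the substitution D40A, which impairs catalysis. The labels give 3 RNA immunoprecipitation (RIP) libraries and 6 input libraries. Of the inputs, 3 came from cells kept with doxycycline at 3 µg/mL over 24 h, and 3 from cells kept without it. The labels do not say whether the cells of the RIP libraries were given doxycycline, and no immunoprecipitate from untagged cells was analysed here.

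CDK inhibitors hold back the kinases that drive the cell cycle. The CIP/KIP members p21 (CDKN1A), p27 (CDKN1B) and p57 (CDKN1C) bind complexes of CDK2 with cyclins E and A, among others. The INK4 members p16 (CDKN2A), p15 (CDKN2B), p18 (CDKN2C) and p19 (CDKN2D) bind CDK4 and CDK6 and keep them from D-type cyclins. Several of these proteins are short-lived and some of their mRNAs are regulated after transcription. CCR4-NOT shortens poly(A) tails and is brought to mRNAs by PUMILIO proteins, AU-rich element binding proteins and microRNAs.

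Human CDKN1B mRNA is a known target of PUMILIO proteins and of miR-221 and miR-222, and human CDKN1A mRNA of the miR-17 and miR-106b family. Whether CCR4-NOT reaches either mRNA through them was not tested. These mature microRNAs are shown as background, with the seed (bases 2 to 8) in capitals.
hsa-miR-221-3p: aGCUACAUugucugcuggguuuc
hsa-miR-222-3p: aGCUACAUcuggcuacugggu
hsa-miR-17-5p: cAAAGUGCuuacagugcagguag
hsa-miR-106b-5p: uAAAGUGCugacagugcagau
The sequences are from RefSeq (GRCh38.p14), where the genes lie on chromosomes X, X, 13 and 7. The first pair shares the seed GCUACAU and the second pair shares AAAGUGC. Neither the microRNAs nor target sites in the CDKN1A and CDKN1B mRNAs were measured here.

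The table held 3 columns named as RIP libraries and 3 named as input libraries. The names of the input columns fit titles of libraries with and without doxycycline, so their culture condition is not given here. The values are gene counts divided by 1 size factor per library, called normalized counts below. The mean of the other 3 inputs was derived from the deposited mean over all 9 libraries. It has no spread, and these inputs are called the remaining inputs. RIP libraries held 37140622 to 40764899 reads in genes and input columns 37290120 to 38918356. RIP replicate 2 stood apart at low counts, with 14786 genes at 0 against 6398 and 6720 in the other RIP libraries and 10056 to 12079 in the input columns. Mitochondrially encoded RNA made up 0.931 to 1.12% of reads in RIP and 18.6 to 26.6% in the input columns. All 6 markers listed for HEK293T had an input mean of at least 100 normalized counts, and they summed to 15177 to 16790 in RIP and 34730 to 38505 in the input columns. Most of these sums came from VIM, with means of 10420 in RIP and 28954 in the input columns. In the limma fit described below PAX2 was higher in RIP (log2 fold 0.94), NEFL, NEFM, KRT18 and VIM were lower, and KRT8 was not called. Of 7 markers of blood, liver, endothelium and fibroblasts, 4 were analysed here (ALB, PECAM1, CDH5 and DCN), and they summed to 0.745 to 19.0 in RIP and 0 to 10.5 in the input columns. The normalized counts of the 7 inhibitor genes in each library, and the derived means, are plotted first.

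**Figure D1:**
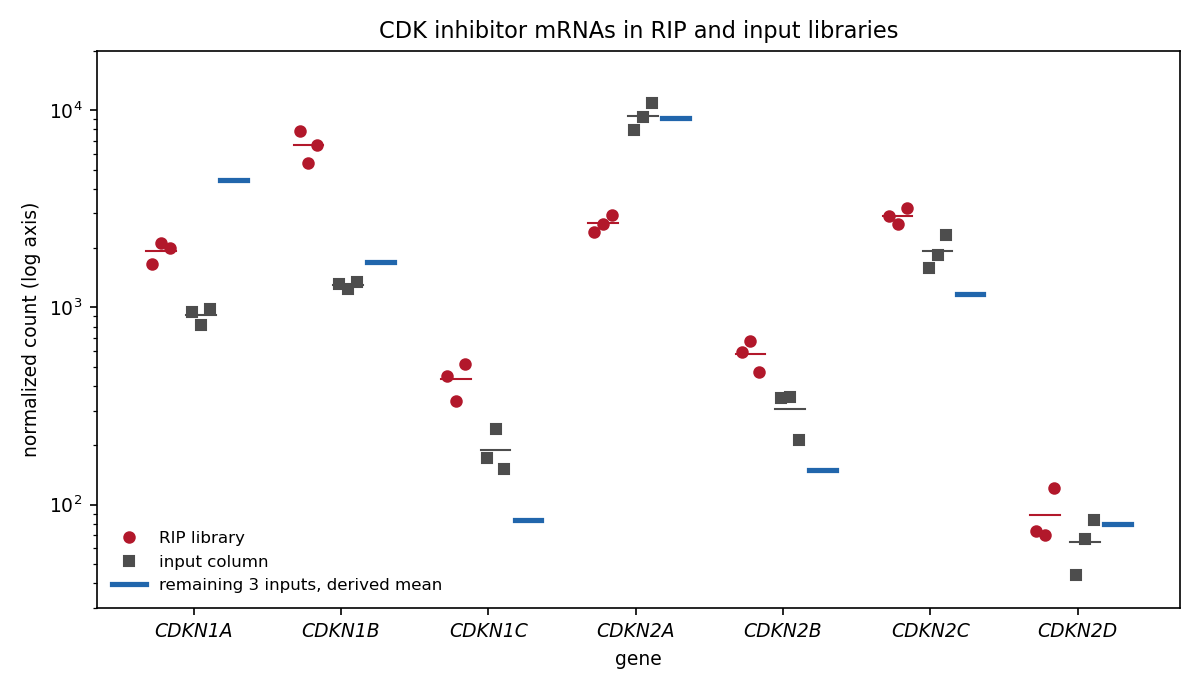
Normalized counts (log axis) of the 7 CDK inhibitor genes, with 1 circle per RIP library, 1 square per input column, thin lines at group means and a thick line at the derived mean of the remaining inputs. RIP lies above the input columns for CDKN1A, CDKN1B, CDKN1C, CDKN2B and CDKN2C, below them for CDKN2A, and overlaps them for CDKN2D; for CDKN1A the remaining inputs (4446) lie above every RIP library.

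Which of these mRNAs were recovered with CCR4-NOT beyond their share of input RNA was asked by setting the RIP libraries against the input columns. Of 7 inhibitor mRNAs, 5 rose in RIP (CDKN1A, CDKN1B, CDKN1C, CDKN2B and CDKN2C), CDKN2A fell, and CDKN2D did not pass the test. Calls used an adjusted p under 0.05 from limma on log2(normalized count + 1), over 16765 genes with a mean of at least 10 normalized counts. All 7 members passed this filter on low values. In the same fit 22.4% of all tested genes were called higher in RIP and 21.2% lower, or 43.6% in either direction. The median log2 fold was 0.95 over the 7 members and -0.043 over all tested genes. The 3 CIP/KIP genes all rose, and of the 4 INK4 genes 2 rose, 1 fell and 1 was not called. The labels do not tie the replicates to separate cultures. The p-values therefore rest on the spread of these libraries alone, which may be technical.

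CDKN1B (ENSG00000111276, chromosome 12, 12717368 to 12722369, GRCh38.p14) had the highest fold of the 7 members. It encodes p27, an inhibitor of CDK2 complexes that accumulates in resting cells and is degraded as cells enter S phase. CDKN1B had 7876, 5410 and 6662 normalized counts in the RIP libraries, against 1315, 1236 and 1348 in the input columns. Even the lowest RIP library, replicate 2, stood far above the highest input column, so the groups did not overlap. The means were 6649 ± 1233 in RIP and 1299 ± 58 in the input columns (SD, n = 3 each), a 5.06-fold difference. Its log2 fold was 2.34 (SE 0.15, 95% interval 2.02 to 2.66, limma adjusted p = 6.98e-07). This placed CDKN1B at the 97.2th percentile of the folds of all tested genes. The libraries behind it held 7260 to 9512 CDKN1B reads in RIP and 1082 to 1260 in the input columns. The input columns varied little, with a coefficient of variation of 4.44%, against 18.5% among the RIP libraries.

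CDKN1A (ENSG00000124762, chromosome 6, 36676463 to 36687332) encodes p21, which inhibits CDK2 complexes and binds the replication clamp PCNA. It had 1664, 2124 and 1993 normalized counts in the RIP libraries, against 944, 813 and 985 in the input columns. Every RIP library lay above every input column. The means were 1927 ± 237 in RIP and 914 ± 90 in the input columns (SD, n = 3 each). CDKN1A rose in RIP with a log2 fold of 1.07 (SE 0.16, limma adjusted p = 0.000176), a 2.10-fold difference. Against the remaining inputs it was lower in RIP, as described below.

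CDKN1C (ENSG00000129757, chromosome 11, 2883218 to 2885775) encodes p57 and is an imprinted gene expressed mainly from the maternal allele. It had 450, 336 and 519 normalized counts in the RIP libraries, against 172, 243 and 151 in the input columns. The groups did not overlap, and RIP replicate 2 was the lowest RIP library, as it was for CDKN1B. CDKN1C averaged 435 ± 92 in RIP and 189 ± 48 in the input columns (SD, n = 3 each), and rose with a log2 fold of 1.21 (SE 0.31, limma adjusted p = 0.00735).

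CDKN2A (ENSG00000147889, chromosome 9, 21967752 to 21995324) was the member that fell. The gene encodes p16 and, from another first exon and reading frame, ARF, which binds the ubiquitin ligase MDM2. Counts per gene combine both transcripts. CDKN2A had 2422, 2636 and 2942 normalized counts in the RIP libraries, against 7889, 9234 and 10839 in the input columns. Every RIP library lay below every input column. The means were 2667 ± 261 in RIP and 9321 ± 1477 in the input columns (SD, n = 3 each). The log2 fold was -1.80 (SE 0.14, 95% interval -2.10 to -1.49, limma adjusted p = 1.82e-06), or 3.48-fold lower in RIP. It lay at the 7.95th percentile of all tested folds.

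CDKN2B (ENSG00000147883, chromosome 9, 22002903 to 22009313), the neighbour of CDKN2A, encodes p15, which TGF-beta induces. It had 595, 676 and 470 normalized counts in the RIP libraries, against 349, 349 and 214 in the input columns. The groups did not overlap, and the third library was the lowest of both groups. CDKN2B averaged 580 ± 104 in RIP and 304 ± 78 in the input columns (SD, n = 3 each), and rose with a log2 fold of 0.95 (SE 0.28, limma adjusted p = 0.0144). Without input replicate 3 its log2 fold was 0.71 and its limma adjusted p 0.0586, so the call rests on that library.

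The long non-coding RNA CDKN2B-AS1 (ANRIL) spans CDKN2B and overlaps CDKN2A by 534 bases, at the edge of CDKN2A with the higher coordinates. CDKN2B-AS1 had 330, 227 and 281 normalized counts in the RIP libraries, against 201, 180 and 329 in the input columns. These groups overlapped (log2 fold 0.27, SE 0.33, limma adjusted p = 0.546). The sources used here give no strand setting for the counting, so reads in the overlaps of CDKN2B-AS1 with CDKN2B and CDKN2A cannot be told apart. Of the other RefSeq genes overlapping a member, DINOL at CDKN1A had 7, 0 and 5 reads in RIP and 0 in every input column, and CDKN2A-AS1 and LOC124902130 were not analysed here.

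CDKN2C (ENSG00000123080, chromosome 1, 50960745 to 50974634) encodes p18. It had 2892, 2662 and 3198 normalized counts in the RIP libraries, against 1587, 1851 and 2327 in the input columns. The lowest RIP library was above the highest input column by less than the spread among the input columns. The means were 2917 ± 269 in RIP and 1921 ± 375 in the input columns (SD, n = 3 each). CDKN2C rose with a log2 fold of 0.62 (SE 0.16, limma adjusted p = 0.00714), a 1.53-fold difference.

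CDKN2D (ENSG00000129355, chromosome 19, 10566460 to 10568979) encodes p19. It had 73.7, 70.0 and 122 normalized counts in the RIP libraries, against 43.8, 67.4 and 83.7 in the input columns, and the groups overlapped. The libraries held 89, 94 and 155 CDKN2D reads in RIP and 42, 59 and 72 in the input columns. Its log2 fold was 0.44 (SE 0.55, limma adjusted p = 0.55), with a 95% interval of -0.76 to 1.65 that covers both a decrease and a rise beyond 2-fold. A difference was not detectable at this depth and spread.

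A total of 6 of 7 members showed no overlap between RIP libraries and input columns, 5 with RIP above and 1 with RIP below. Among all tested genes 27.4% had every RIP library above every input column and 27.3% had every one below. The 5 members that rose spanned the 72.0th to the 97.2th percentile of all folds, and their position is shown in the histogram of folds.

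**Figure D2:**
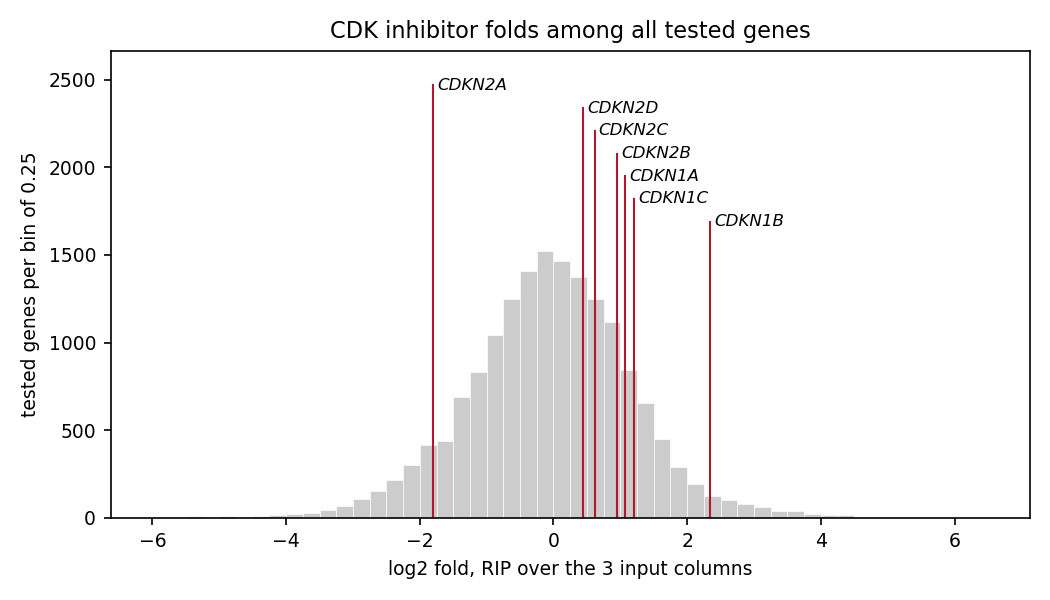
Number of tested genes per bin of 0.25 of the log2 fold of RIP over the 3 input columns, with a vertical line at the fold of each CDK inhibitor gene (line height carries no value). CDKN1B lies in the upper tail at 2.34, CDKN2A in the lower tail at -1.80, and the other 5 genes lie between 0.44 and 1.21.

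Whether the folds differed between members was examined with the log2 difference of each pair of members within a library, over all 21 pairs. This difference did not overlap between RIP libraries and input columns in 12 pairs. They were all 6 pairs with CDKN1B, all 6 with CDKN2A (the pair of both counted once) and CDKN1C with CDKN2D. CDKN1B and CDKN2A were the members with the highest and the lowest fold. The share of such pairs among all tested genes was not computed, so the count is a description of these members only. CDKN1B exceeded CDKN2A by 1.31 ± 0.35 in RIP, and fell short of it with a difference of -2.83 ± 0.22 in the input columns (log2, SD, n = 3 each). The fold of CDKN1B was thus higher by 4.14 on the log2 scale. Between the neighbouring genes CDKN2A and CDKN2B the difference of levels was 2.21 ± 0.38 in RIP and 4.96 ± 0.62 in the input columns (log2, SD, n = 3 each). With CDKN1A and CDKN1C the shift of the CDKN1B difference was -1.27 (CDKN1A minus CDKN1B) and 1.13 (CDKN1B minus CDKN1C), also without overlap. The difference of levels between CDKN1A and CDKN1C did overlap between the groups. It was 2.16 ± 0.43 in RIP and 2.29 ± 0.50 in the input columns (log2, SD, n = 3 each). With 3 against 3 libraries a two-sided exact permutation test cannot go below p = 0.1. The 12 pairs without overlap reached that value (exact permutation, adjusted p = 0.175 over 21 pairs), so no pair passed a threshold of 0.05.

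The remaining inputs gave another picture for some members. CDKN1A averaged 914 ± 90 normalized counts in the input columns (SD, n = 3), against a derived mean of 4446 in the remaining inputs, which was 4.87 times higher. No RIP library and no input column reached that value. Its log2 ratio of RIP over the remaining inputs was -1.21, opposite in sign to its fold over the input columns. With all 6 inputs as 1 group the ratio was -0.48. Among tested genes with reads in both sets of inputs, 7.06% were at least 2-fold higher in the remaining inputs than in the input columns, and CDKN1A lay at the 0.686th percentile of the ratio of input columns over remaining inputs. None of these ratios has an error, and they were not tested.

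CDKN1C and CDKN2B moved the other way between inputs. CDKN1C averaged 189 ± 48 in the input columns (SD, n = 3), against a derived mean of 83.9 in the remaining inputs. CDKN2B averaged 304 ± 78 (SD, n = 3) against 150. Every input column lay above the remaining mean for both genes, and for CDKN2C, with 1921 ± 375 (SD, n = 3) against 1172. Among tested genes 8.14% were at least 2-fold higher in the input columns than in the remaining inputs, as were CDKN1C and CDKN2B.

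CDKN1B and CDKN2A kept the sign of their fold against the remaining inputs. CDKN1B had a remaining mean of 1708, above every input column and below every RIP library, and its log2 ratio of RIP over the remaining inputs was 1.96. CDKN2A had 9162 in the remaining inputs, inside the range of the input columns, with a log2 ratio of RIP over the remaining inputs of -1.78. For CDKN2D, at 79.4, 1 of 3 RIP libraries lay above the remaining mean. RIP was at least 2-fold above the remaining inputs for CDKN1B, CDKN1C, CDKN2B and CDKN2C, 4 of 7 members, and at least 2-fold below for CDKN1A and CDKN2A. Over all tested genes these shares were 21.2% and 20.4%. The bait gene CNOT7 averaged 86982 ± 11495 in RIP and 24800 ± 498 in the input columns (SD, n = 3 each), with 4240 in the remaining inputs. Gene counts do not separate endogenous from tagged CNOT7, and the part of its level in these differences was not tested. The plot of RIP over each set of inputs shows both values per gene.

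**Figure D3:**
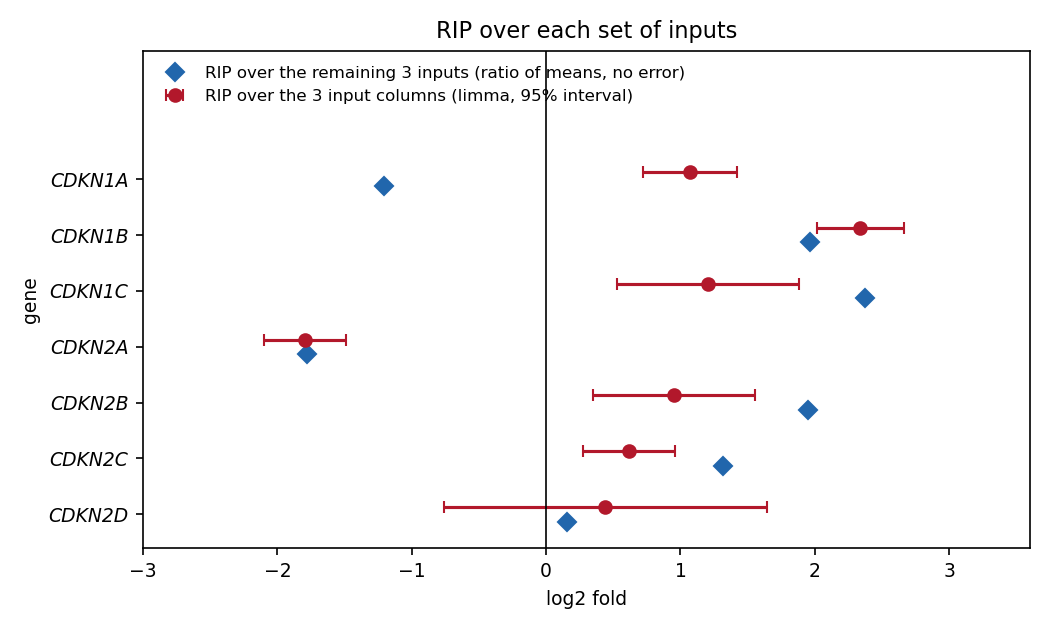
Log2 fold of RIP over the 3 input columns (circles, limma estimate with its 95% interval) and log2 ratio of RIP over the derived mean of the remaining 3 inputs (diamonds, ratio of means, no error) for the 7 CDK inhibitor genes. The diamond of CDKN1A lies at -1.21 while its circle lies at 1.07; for the other 6 genes both lie on the same side of 0.

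In order of level, CDKN1B, CDKN1C, CDKN2B and CDKN2C were highest in RIP. For CDKN1C, CDKN2B and CDKN2C the input columns came next and the remaining inputs last, whereas for CDKN1B the remaining inputs came second. CDKN1A was highest in the remaining inputs, then RIP, then the input columns. CDKN2A was lowest in RIP, and its input columns and remaining inputs do not differ beyond the spread of the columns. CDKN2D had no neighbours in this order that differ beyond their spread.

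Genes with the most similar pattern were found by the root-mean-square difference of centred log2 values over the 6 libraries, among 12130 genes with a symbol and a mean of at least 100 normalized counts. For CDKN1B these were CNEP1R1, OTUD1 and PIM1, with differences of 0.093, 0.11 and 0.12 and log2 folds of 2.39, 2.23 and 2.29. PIM1 is a short-lived kinase. For CDKN2A they included APRT, an enzyme of adenine salvage, and RPL14, a ribosomal protein, with differences of 0.038 and 0.049 and log2 folds of -1.87 and -1.80. For CDKN1A they were CEP85, ZSWIM4 and LZTS2, with 0.039, 0.046 and 0.051. CEP85, with a fold over the input columns close to that of CDKN1A (1.03), had 2095 normalized counts in the input columns and 1986 in the remaining inputs. ZSWIM4 had 493 and 266, and LZTS2 had 1261 and 821, both lower in the remaining inputs. The nearest genes of CDKN1C were CHKB-DT, ZNF554 and TFAP2C, those of CDKN2B were BLOC1S5, SERTM1 and RICTOR, and those of CDKN2C were ESRRB, ZNF383 and SRP19, all with differences of 0.059 to 0.11. CDKN2D had RP9, TMEM86A and ISM2, at 0.067 to 0.13. This order describes 6 libraries in 2 groups and carries no test.

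Other genes with symbols starting with CDKN are not CDK inhibitors of these families. CDKN3, a phosphatase that dephosphorylates CDK2, fell with a log2 fold of -0.62 (SE 0.17, limma adjusted p = 0.00967), and was not called under total-count scaling (-0.13). CDKN2AIP, a binding partner of ARF, rose over the input columns with a log2 fold of 0.80 (SE 0.27, limma adjusted p = 0.0314). Against the remaining inputs its direction turned, since RIP averaged 707 ± 46 (SD, n = 3) and the remaining inputs had a derived mean of 1297, a log2 ratio of -0.88. With all 6 inputs as 1 group the log2 ratio of CDKN2AIP was -0.28, and these ratios were not tested. CDKN2AIPNL fell with -1.53 (SE 0.22, limma adjusted p = 0.000124). The pseudogenes CDKN2AIPNLP1 and CDKN2AIPNLP2 were at or below 1.14 normalized counts in each library and were not tested.

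The kinases and cyclins that the inhibitors act on were mixed. Of 13 genes for CDKs, cyclins and PCNA, 4 rose, 4 fell and 5 were not called, with a median log2 fold of -0.23. CCNE1 (cyclin E1, which activates CDK2) and CCND1 (cyclin D1, which activates CDK4 and CDK6) rose with log2 folds of 1.17 (SE 0.17) and 0.64 (SE 0.12). CDK4, the kinase bound by INK4 proteins, had 3658 ± 631 in RIP and 8484 ± 1019 in the input columns (SD, n = 3 each) and fell with -1.22 (SE 0.15). CCND3 (cyclin D3) fell with -0.72 (SE 0.17). Under total-count scaling the median was 0.25 and 5 rose and 1 fell, that one being CDK4.

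The ubiquitin ligase subunits that degrade the inhibitors fell or were not called. Of 11 genes 7 fell and 0 rose, with a median log2 fold of -0.82. DDB1, an adaptor of the CUL4 ligase that degrades p21, had 6140 ± 701 in RIP and 17537 ± 690 in the input columns (SD, n = 3 each), a log2 fold of -1.52 (SE 0.12). SKP2, the receptor of the ligase that degrades p27, had 5808 ± 392 in RIP and 10266 ± 428 in the input columns (SD, n = 3 each), a log2 fold of -0.82 (SE 0.11). In recovery over the input columns SKP2 thus fell and CDKN1B rose, and a link between them was not tested. With total-count scaling 4 of these genes fell and 2 rose, and the median was -0.33.

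Transcription factors that regulate inhibitor genes mostly rose. The chromatin proteins BMI1 (log2 fold 0.33) and EZH2 (0.031) were not called, though both were called higher under total-count scaling. Of all 14 genes of this list 8 rose, 1 fell and 5 were not called. The median log2 fold was 0.56 (12 rose and 0 fell under total-count scaling). KLF6, an activator of CDKN1A, had 7622 ± 319 in RIP and 1490 ± 117 in the input columns (SD, n = 3 each), a log2 fold of 2.36 (SE 0.12). MYC, a repressor of CDKN1A and CDKN2B, rose with 1.47 (SE 0.11).

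CDKs inactivate the pocket proteins by phosphorylation, which the inhibitors hold back. Of these proteins, RBL2 was the 1 of 3 that rose, with a log2 fold of 0.34 (SE 0.13, limma adjusted p = 0.048). It was not called without RIP replicate 2 (limma adjusted p = 0.099). RB1 had -0.49 and RBL1 0.21, and neither was called, but RB1 was called lower without RIP replicate 2 (-0.62) and turned to 0.0087 under total-count scaling. Among the RNA-binding proteins known to bind inhibitor mRNAs, DND1 was too scarce to test, and of 6 tested genes 2 rose and 1 fell, with a median log2 fold of -0.01 (0.48 under total-count scaling, with 5 rising and 1 falling). PUM2, a PUMILIO protein that binds CDKN1B mRNA, rose with a log2 fold of 1.25 (SE 0.13). HNRNPD (AUF1) fell with -1.12 (SE 0.14). ELAVL1 (HuR) had -0.13, RBM38 0.061 and CELF1 -0.082, none called, and ELAVL1 and CELF1 were called higher under total-count scaling. These 5 lists are described by their counts beside the 22.4% and 21.2% of all tested genes called higher and lower. Their counts under total-count scaling stand beside 6142 genes called higher and 1651 lower of 16907 tested under that scaling. The median log2 fold of all tested genes was then 0.45, so genes in general moved up.

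**Figure D4:**
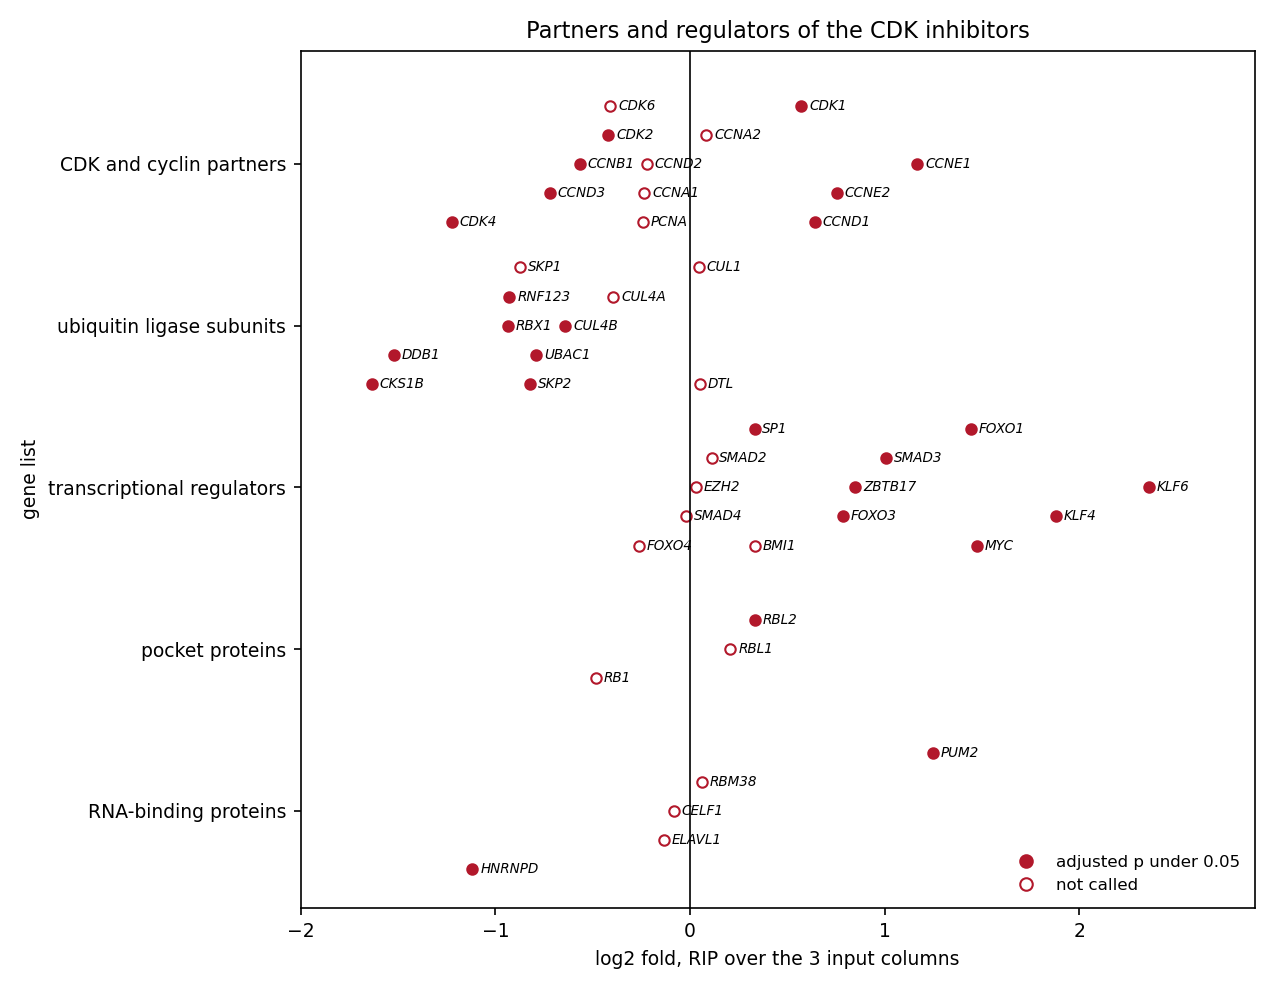
Log2 fold of RIP over the 3 input columns for the genes reported here of 5 lists of partners and regulators of the CDK inhibitors, with filled circles for an adjusted p under 0.05 (limma) and open circles for genes not called (vertical spread within a list carries no value). Ubiquitin ligase subunits lie between -1.63 and 0.052, and 8 transcriptional regulators are called above 0.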

How the data were processed

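Per the submitters' processing notes, reads were handled with STAR, featureCounts and DESeq2 on GRCh38, without versions. The sources used here give no annotation, strand setting or filter. The deposited signal holds gene counts divided by 1 size factor per library. All values (100%) were whole multiples, within 0.01, of the worth of 1 read in their column, so whole reads were recovered. The authors' deposited table also holds a log2 fold of RIP over input, a shrunken one, their SEs, a Wald score, p-values and adjusted p-values, used here as 1 alternative. Its log2 fold differed from that of the column means by at most 0.0051 over 12856 genes.

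The remaining inputs were derived as 9 times the deposited mean, minus the 6 columns, divided by 3. The difference was below 0 for 0 genes and 0 for 5814 of 30956. RIP was compared with the input columns with limma 3.58.1 (lmFit, eBayes with trend) on log2(normalized count + 1), for genes with a mean of at least 10, with Benjamini-Hochberg adjustment over all tested genes. Alternatives used edgeR 4.0.16 and DESeq2 1.42.0 on recovered reads (R 4.3.3), other scaling, filters and pseudocounts, a replicate block and leaving out each library. Folds are on the log2(value + 1) scale, ratios to the remaining inputs are log2 ratios of means.

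The members and lists were chosen with earlier results of these data known. Named genes were the members, other CDKN symbols, RefSeq genes overlapping a member, the 3 most similar genes per member and, per list, the 2 genes with the smallest p in each direction. Some genes that this rule names are not reported here. Other genes named were chosen after their values were seen. Gene positions were matched by symbol to RefSeq (GRCh38.p14). A count of 0 allows up to 3 reads, or 0.0736 to 0.0808 CPM by library. This floor covers counting error alone, since reads counted without molecular identifiers need not be separate molecules. Libraries of the same group differed by more than sampling noise, with a chi-square of 29.9 to 82.8 per degree of freedom.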

Additional observations from a re-analysis of the deposited data

How the results depend on the processing

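Across 18 alternatives, or 17 for CDKN2D, which a mean of at least 100 left out, no fold of RIP over the input columns changed sign in any of the 7 members. Only CDKN2B changed its side of the threshold, without input replicate 3 (log2 fold 0.71, limma adjusted p = 0.0586) and at an adjusted p under 0.01 (its log2 fold of 0.95 has a limma adjusted p of 0.0144). Leaving out each library in turn gave log2 folds of 0.99 to 1.17 for CDKN1A, 2.21 to 2.48 for CDKN1B, 1.06 to 1.40 for CDKN1C, -1.91 to -1.68 for CDKN2A, 0.71 to 1.09 for CDKN2B, 0.49 to 0.76 for CDKN2C and 0.19 to 0.65 for CDKN2D. Total-count scaling raised the median of all tested genes by 0.49 and gave 6142 genes higher and 1651 lower (78.8% of calls higher, against 51.4% with 3758 and 3550). Scaling without mitochondrially encoded and small RNA genes raised it by 0.14. With all 6 inputs as 1 group the log2 ratio of RIP was -0.48 for CDKN1A, 1.67 for CDKN1C, 1.35 for CDKN2B and 0.92 for CDKN2C, since that group also holds the input columns. For CDKN2D, whose ratio of RIP over the remaining inputs was 0.15, leaving out 1 RIP library in turn gave -0.14 to 0.30, with the negative value without RIP replicate 3. The cause was not tested.

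Deviations of same-numbered RIP and input columns correlated at 0.255, 0.0025 and 0.24. RIP replicate 1 with input column 3 gave -0.226, and RIP replicate 3 with input column 1 gave -0.265. RIP replicate 2 was near 0 with every input column. Deviations within a group sum to 0 for each gene, so these values are not separate evidence for number 1 and for number 3. The difference between numbers 1 and 3 varied together across the groups, while number 2 could not be judged. The main fit used no pairing. With a replicate block 4053 genes were higher and 3925 lower, and the calls of the members did not change. Input column 2 correlated at -0.029, 0.0025 and 0.026 with RIP replicates 1, 2 and 3, all near 0. CDKN2D had the fewest reads of the members. The edgeR and DESeq2 fits on recovered reads called the same 6 members.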
